A study of Homo sapiens with 35 samples.

Results

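Claudins and tight junction proteins were followed in DU145 cells, an established human prostate cancer line derived from a brain metastasis, after knockdown of a chromatin regulator. The 9 genes described are CLDN1, CLDN3, CLDN4, CLDN7, CLDN11 and CLDN12, the occludin gene OCLN, and the scaffold genes TJP1 and TJP3. They were taken by name from a deposited table of 28503 genes and had been picked with their values in these libraries known. Their values are therefore given as a description and no p-value is printed for them. Where one of the 9 is said to pass a threshold (an adjusted p under 0.05 in the fit over all genes), this too describes the libraries on which it was picked and is no test.

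The series has 35 DU145 samples, of which the 6 RNA sequencing libraries were used. The control group held a hairpin RNA directed at luciferase (shLuciferase, 2 libraries). In the other two groups the hairpin was directed against ZMYND8, a chromatin reader of modified histones (shZMYND8, 2 libraries), or against JARID1D, the lysine 4 demethylase of histone H3 encoded by KDM5D (shJARID1D, 2 libraries). All groups are 1 cell line, and the labels used here do not say how many hairpins per gene were used or whether the libraries came from separate cultures. The p-values printed therefore rest on the spread within these pairs of libraries alone, and that spread could be technical. The table's columns for the ZMYND8 hairpin are named Rac7_KO, and were assigned on the assumption that Rac7 stands for RACK7, another name of ZMYND8.

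Tight junctions seal the space between neighbouring epithelial cells near their apical border. Claudins are membrane proteins whose extracellular loops pair between cells and set how tight the seal is and which ions pass. Occludin lies in the same strands, and the ZO proteins encoded by the TJP genes tie claudins and occludin to the actin cytoskeleton. In carcinoma, loss or gain of single claudins is a common feature, and repressors of the SNAI and ZEB families act on several claudin and occludin promoters through E-boxes.

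The targeted genes fell in the libraries labelled for them. ZMYND8 stood at 64.7 and 52.7 CPM (counts scaled to a common library size) in shLuciferase and at 35.5 and 33.2 CPM in shZMYND8, a log2 fold change of -0.77 ± 0.13 (standard error; edgeR quasi-likelihood test, Benjamini-Hochberg adjusted p = 0.00491, 0.0581 without shZMYND8 replicate 2). KDM5D stood at 58.1 and 61.0 CPM in shLuciferase and at 19.6 and 17.9 CPM in shJARID1D, a log2 fold change of -1.67 ± 0.12 (edgeR, adjusted p = 0.000831). Deposited estimated counts summed to 22925611 to 25001300 per library, and 15867 genes passed the filter on low counts, all 9 described genes among them. The epithelial markers KRT8, KRT18, KRT19, CDH1 and EPCAM were present in every library, whereas the prostate marker KLK3 reached at most 0.0429 CPM. The epithelial list summed to 1320 and 1860 CPM in shLuciferase, 1100 and 1220 CPM in shZMYND8, and 963 and 1130 CPM in shJARID1D. Of its 3 keratins, KRT19 fell in shZMYND8 with a log2 fold change of -1.16 ± 0.16 (edgeR, adjusted p = 0.00184), and KRT8 and KRT18 fell in shJARID1D with -0.86 ± 0.21 and -0.67 ± 0.15 (edgeR, adjusted p = 0.0465 and 0.0349). Calls of marker genes were not followed through the alternative fits described at the end. Among markers of other cell types CD3E and DCN were at 0 in all 6 libraries and PTPRC reached at most 0.0429 CPM. The endothelial list summed to 0.255 and 0.557 CPM in shLuciferase, 1.16 and 1.33 CPM in shZMYND8, and 0.3 and 0.643 CPM in shJARID1D. The leukocyte list summed to 36.1 to 57.2 CPM, nearly all of it from CD68, a lysosomal protein. The summed stromal marker list ran from 2.23 to 3.15 CPM in shLuciferase, from 6.74 to 7.37 in shZMYND8 and from 3.52 to 5.44 in shJARID1D. Of that list only COL1A1 passed in shZMYND8, at 4.46 and 4.12 CPM against 1.79 and 0.942 CPM in shLuciferase. Its log2 fold change was 1.65 ± 0.42 (edgeR, adjusted p = 0.026). The part of the epithelial, endothelial and stromal lists in the results was not tested.

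The sequences upstream of CLDN1, CLDN3 and CLDN4 are shown because these claudins are neighbours in function but differed in shZMYND8, where CLDN1 rose and the others fell. Each also has a single start site in the RefSeq promoter table (GRCh38.p14). Each line gives the 250 bases before the start, 5′ to 3′ on the gene's strand. Capitals mark the GC box, GGGCGG or its reverse complement CCGCCC, the core of the site bound by SP1-family factors.
CLDN1, chr3:190322447-190322696, minus strand: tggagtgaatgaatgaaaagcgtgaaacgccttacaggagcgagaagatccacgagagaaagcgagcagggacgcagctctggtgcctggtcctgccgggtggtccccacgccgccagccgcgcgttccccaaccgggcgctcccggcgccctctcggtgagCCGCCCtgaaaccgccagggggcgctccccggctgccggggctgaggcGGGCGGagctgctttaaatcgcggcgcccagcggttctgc
CLDN3, chr7:73770271-73770520, minus strand: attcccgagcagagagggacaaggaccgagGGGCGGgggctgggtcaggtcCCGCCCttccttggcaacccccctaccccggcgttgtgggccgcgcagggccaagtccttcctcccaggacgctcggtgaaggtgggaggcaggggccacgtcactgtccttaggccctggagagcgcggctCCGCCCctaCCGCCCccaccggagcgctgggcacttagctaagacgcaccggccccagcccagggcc
CLDN4, chr7:73830746-73830995, plus strand: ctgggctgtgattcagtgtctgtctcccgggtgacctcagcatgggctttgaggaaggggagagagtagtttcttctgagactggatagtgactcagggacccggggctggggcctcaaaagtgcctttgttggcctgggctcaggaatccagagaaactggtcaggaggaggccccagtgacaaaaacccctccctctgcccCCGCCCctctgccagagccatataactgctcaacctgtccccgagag

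The CLDN1 window holds 2 GC boxes, the CLDN3 window 4 and the CLDN4 window 1. None of the 3 holds the E-box CAGGTG or its reverse complement CACCTG, the sequence that SNAI and ZEB repressors bind. All 9 genes matched the promoter table, with 16 windows of 250 bases in all. An E-box was present in 5 of these windows, belonging to CLDN7, OCLN, TJP1 and TJP3, against 17.5% of all 35116 windows in the table. One of the 2 CLDN7 windows holds 4 E-boxes, at 174, 135, 20 and 9 bases before the start, and 0.464% of all windows hold at least 3. The 30 bases next to that CLDN7 start and to the TJP3 start with an E-box are printed with the E-boxes in capitals.
CLDN7, chr17:7262479-7262508, minus strand: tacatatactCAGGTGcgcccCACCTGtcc
TJP3, chr19:3721707-3721736, plus strand: gagacctggaggaggaagaggggCAGGTGc
A GC box was present in 12 windows of 8 of the genes, against 42.6% of all windows. GC content of the 16 windows ran from 34.8% to 71.6%, against a median of 58.0% over all windows, and TJP1 alone gives 4 of the 16. The E-box and GC box matches describe letters only, since no binding was measured at them here.

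CLDN1, which forms sealing strands in skin and many epithelia, had the largest change of the 9 genes. It measured 22.1 and 24.7 CPM in shLuciferase, 107 and 114 CPM in shZMYND8, and 39.5 and 52.2 CPM in shJARID1D. The control libraries were lowest, the shZMYND8 libraries highest, and no pair of groups overlapped. The log2 fold change was 2.24 ± 0.15 in shZMYND8, that is 4.71-fold, and 0.97 ± 0.15 in shJARID1D, that is 1.96-fold. The latter did not pass the threshold without shJARID1D replicate 2. Between the knockdowns CLDN1 was 2.41-fold higher in shZMYND8, a log2 difference of 1.27 ± 0.15. CLDN16, a claudin of the kidney that overlaps CLDN1 in RefSeq, also appeared in shZMYND8, at 20 and 23 counts against 0 and 0 in shLuciferase and 2 and 6 in shJARID1D. Because strand was not stated for the counting, reads from the overlap cannot be assigned to either gene with certainty.

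CLDN3 and CLDN4, both receptors of a clostridial enterotoxin, lie beside each other on chromosome 7 but had different profiles. CLDN4 measured 41.6 and 30.9 CPM in shLuciferase, 11.4 and 8.67 CPM in shZMYND8, and 41.4 and 31.7 CPM in shJARID1D. Both shZMYND8 libraries lay far under the other 4, and the shJARID1D and shLuciferase libraries overlapped. CLDN4 was thus 3.62-fold lower in shZMYND8, a log2 fold change of -1.86 ± 0.20. Its log2 fold change in shJARID1D was 0.01 ± 0.19.

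CLDN3 measured 14.6 and 18.8 CPM in shLuciferase, 8.91 and 9.02 CPM in shZMYND8, and 11.1 and 9.99 CPM in shJARID1D. It was lower than in the control libraries in both knockdowns, without overlap. The log2 fold change was -0.89 ± 0.17 in shZMYND8, 1.86-fold lower, and -0.66 ± 0.17 in shJARID1D, 1.58-fold lower. Between the knockdowns the log2 difference was -0.23 ± 0.17, which did not pass the threshold. Both differences from the control are sensitive to single libraries: that in shZMYND8 did not pass with either shZMYND8 library left out, and that in shJARID1D did not pass in 8 of the 13 alternative fits.

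CLDN7, an epithelial claudin that forms complexes with EPCAM, had the fewest reads of the 6 claudins among the 9 genes. Its deposited counts were 109.9 and 94.2 in shLuciferase, 36.9 and 23.8 in shZMYND8, and 164.1 and 112.5 in shJARID1D. These correspond to 4.68 and 4.03, 1.59 and 1.03, and 7.03 and 4.84 CPM. The shZMYND8 libraries were the lowest and the shJARID1D libraries the highest, with no overlap between any groups. CLDN7 was 3.32-fold lower in shZMYND8 than in the control, a log2 fold change of -1.73 ± 0.30 that did not pass without shZMYND8 replicate 2. In shJARID1D its log2 fold change was 0.45 ± 0.27 and did not pass, and between the knockdowns it was -2.18 ± 0.30. EPCAM, a cell adhesion protein and the partner of CLDN7, fell in shZMYND8 as well, with a log2 fold change of -1.68 ± 0.17 (edgeR, adjusted p = 0.000546), whereas CDH1, the E-cadherin of adherens junctions, rose with 1.01 ± 0.22 (edgeR, adjusted p = 0.013). Another gene, ELP5, overlaps CLDN7, so its reads carry the same uncertainty as those of CLDN1.

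CLDN11, known from myelin of oligodendrocytes and from Sertoli cells, went in opposite directions in the knockdowns. It measured 67.7 and 89.0 CPM in shLuciferase, 125 and 127 CPM in shZMYND8, and 26.6 and 42.9 CPM in shJARID1D. The shZMYND8 libraries lay above and the shJARID1D libraries under the control libraries, without overlap. The log2 fold change was 0.68 ± 0.20 in shZMYND8, 1.61-fold higher, and -1.17 ± 0.21 in shJARID1D, 2.25-fold lower. Directly compared, CLDN11 was 3.62-fold higher in shZMYND8 than in shJARID1D, with a log2 difference of 1.86 ± 0.21. The first difference did not pass in 4 of the 13 alternative fits and the second in 2, while the direct comparison passed in all 13.

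CLDN12, a claudin without the usual PDZ-binding end, did not differ between groups beyond the spread of the libraries. It measured 170 and 136 CPM in shLuciferase, 156 and 157 CPM in shZMYND8, and 163 and 148 CPM in shJARID1D, so that every pair of groups overlapped. The log2 fold changes were 0.03 ± 0.13 and 0.02 ± 0.13. OCLN measured 54.3 and 46.8 CPM in shLuciferase, 46.5 and 49.5 CPM in shZMYND8, and 41.3 and 39.2 CPM in shJARID1D. The shJARID1D libraries were the lowest, and the other two groups overlapped. Neither difference from the control passed the threshold, with log2 fold changes of -0.07 ± 0.12 in shZMYND8 and -0.33 ± 0.12 in shJARID1D.

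**Figure D1:**
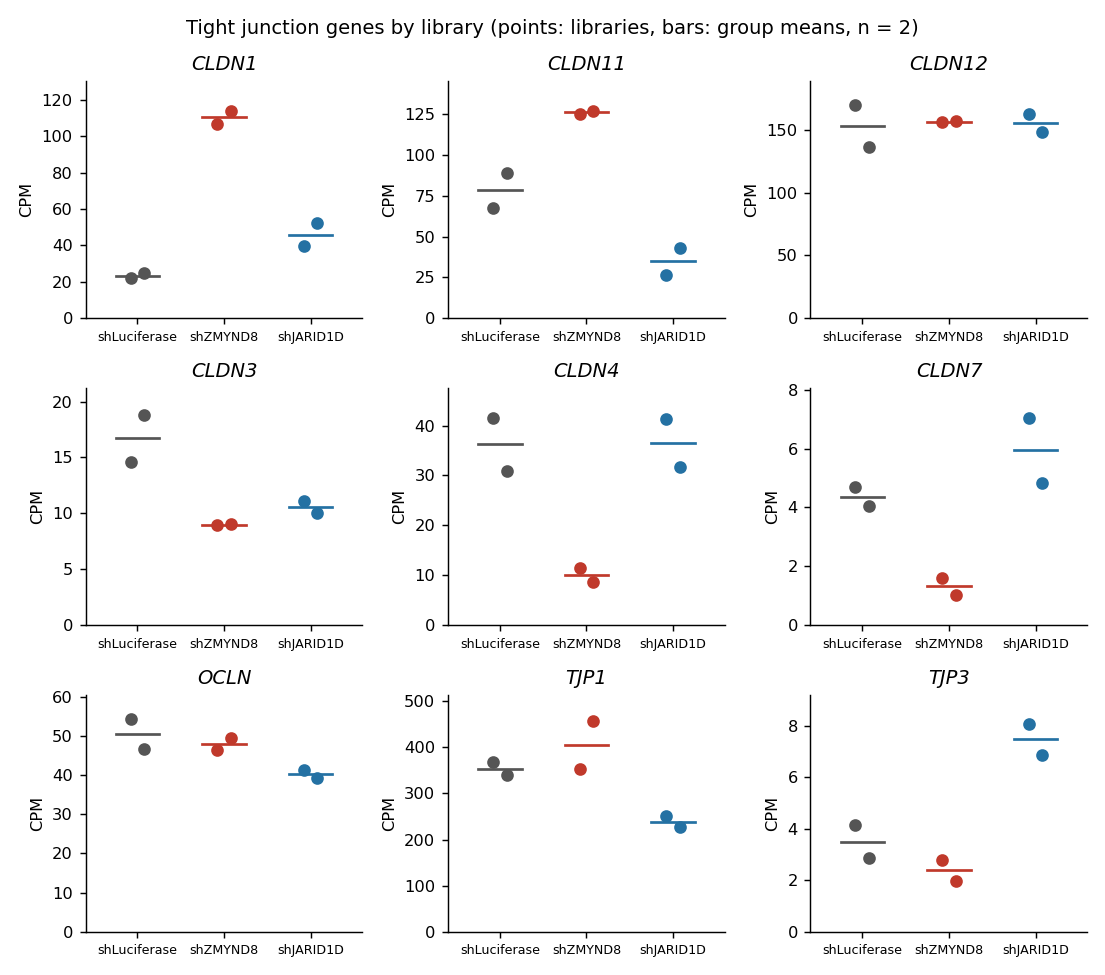
Level of each of the 9 genes in CPM by group, with 1 point per library and a bar at the group mean (n = 2), each panel on its own axis from 0. CLDN1 and CLDN11 are highest in shZMYND8, CLDN4 and CLDN7 are lowest there, TJP1 is lowest and TJP3 highest in shJARID1D, and the CLDN12 groups overlap.

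Of the 2 scaffold genes, TJP1 was lowest and TJP3 highest in shJARID1D. TJP1, which encodes ZO-1, measured 368 and 339 CPM in shLuciferase, 354 and 456 CPM in shZMYND8, and 250 and 227 CPM in shJARID1D. Both shJARID1D libraries lay under the other 4, while the shZMYND8 and control libraries overlapped. TJP1 was 1.48-fold lower in shJARID1D than in the control, a log2 fold change of -0.57 ± 0.14 that did not pass in 7 of the 13 alternative fits. In shZMYND8 the log2 fold change was 0.19 ± 0.14, and between the knockdowns the log2 difference was 0.76 ± 0.14, which did not pass without shZMYND8 replicate 2 or without shJARID1D replicate 2.

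TJP3, which encodes ZO-3, a scaffold of epithelial junctions, was low throughout. Its deposited counts were 97.4 and 67.1 in shLuciferase, 64.6 and 45.8 in shZMYND8, and 188.0 and 160.1 in shJARID1D, or 4.13 and 2.87, 2.78 and 1.98, and 8.06 and 6.86 CPM. The shJARID1D libraries were the highest and no groups overlapped. TJP3 was 2.13-fold higher in shJARID1D than in the control, a log2 fold change of 1.09 ± 0.26 that did not pass in 7 of the 13 alternative fits. In shZMYND8 it was -0.56 ± 0.27 and did not pass. Directly compared, TJP3 was 3.13-fold lower in shZMYND8 than in shJARID1D, a log2 difference of -1.65 ± 0.26 that did not pass without shZMYND8 replicate 2. APBA3 overlaps TJP3, so its reads are uncertain in the same way.

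**Figure D2:**
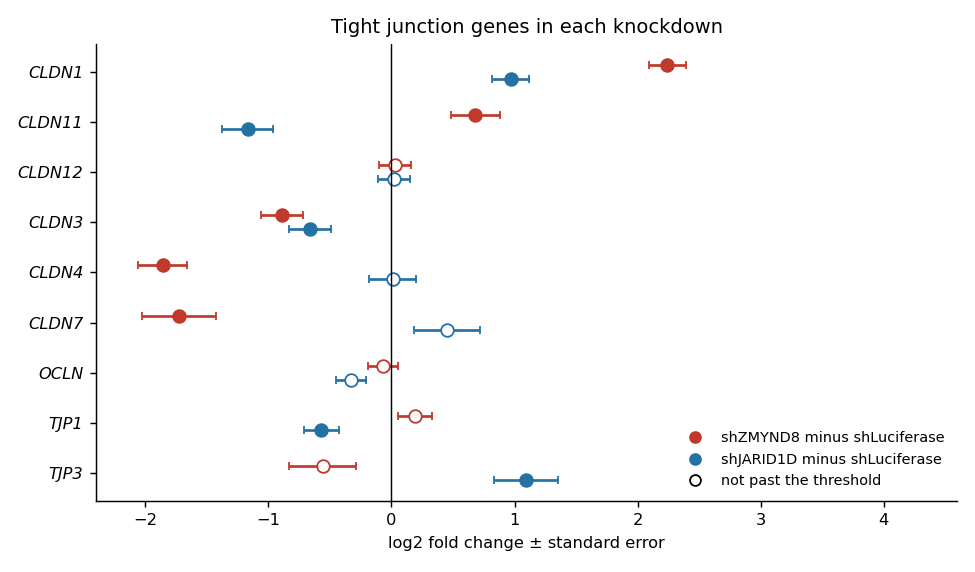
Log2 fold change with its standard error for each of the 9 genes in shZMYND8 (red) and shJARID1D (blue) against the same 2 shLuciferase libraries, with filled points past the adjusted threshold of 0.05. CLDN1 lies to the right in both knockdowns and CLDN3 to the left in both, CLDN11 lies on opposite sides, and CLDN4 lies at -1.86 in shZMYND8 and at 0.01 in shJARID1D.

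Counted together, 5 of the 9 genes passed the adjusted threshold of 0.05 in shZMYND8 against shLuciferase, 2 higher (CLDN1, CLDN11) and 3 lower (CLDN3, CLDN4, CLDN7). Of all genes tested, 16.2% passed in that comparison, 8.89% higher and 7.34% lower. In shJARID1D also 5 of 9 passed, 2 higher (CLDN1, TJP3) and 3 lower (CLDN3, CLDN11, TJP1), with 5.75% of all genes passing, 2.96% higher and 2.79% lower. In shZMYND8 against shJARID1D 6 passed, 3 higher (CLDN1, CLDN11, TJP1) and 3 lower (CLDN4, CLDN7, TJP3), with 15.7% of all genes passing, 8.67% higher and 7.02% lower. The groups did not overlap for 6, 7 and 8 of the 9 genes in these comparisons, against 57.8%, 51.9% and 65.4% of all genes. The median log2 fold change of the 9 was -0.07, 0.01 and 0.01, and that of all genes -0.005, 0.001 and 0.001. Since the genes were picked on these values, nothing is read from the counts, and since both knockdowns are set against the same control libraries, the 2 comparisons are not independent. With 1 library left out at a time, the counts ran from 2 to 5 in shZMYND8 (2 without shZMYND8 replicate 2), from 1 to 4 in shJARID1D (1 with either shJARID1D library left out) and from 4 to 6 between the knockdowns. Fewer cells of a type and less RNA per cell cannot be told apart in these bulk samples.

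The rest of the tight junction was examined in 58 further genes in the table, of which 46 passed the filter: 7 other claudins, 10 other membrane proteins, 17 scaffold proteins and 12 polarity proteins. These lists, and those of markers and regulators, were also chosen with earlier results of these data known, so their counts and p-values are a description. In shZMYND8 13 of the 46 passed the threshold, 3 higher and 10 lower, against 8.89% of all genes higher and 7.34% lower. Their median log2 fold change was -0.01. In shJARID1D 3 of the 46 passed, all lower, against 5.75% of all genes in either direction, and their median was -0.09. No gene passed as higher there by edgeR, with 5 higher at an unadjusted p under 0.05 and 1 past the threshold by DESeq2. Between the knockdowns 13 passed, 8 higher and 5 lower in shZMYND8, against 8.67% of all genes higher and 7.02% lower. The count in shZMYND8 fell to 2 without its replicate 1 and to 5 without its replicate 2.

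Among the other claudins CLDN16 alone passed, with 1 of 7 higher in shZMYND8 and in the direct comparison, against 8.89% and 8.67% of all genes. Its mean of 0.922 CPM in shZMYND8 was at least 7.2-fold higher than the floor of 3 counts per library in shLuciferase, a level near the limit of detection. That ratio was not tested. On the observed counts, 0 and 0 in shLuciferase, CLDN16 was higher in shZMYND8 (edgeR, adjusted p = 0.00402). It had no adjusted p in DESeq2 and was not tested at a mean count of at least 50. CLDN15, at 5.41 to 7.93 CPM, and CLDN23, at 14.3 to 21.0 CPM, did not pass in any comparison. The 10 claudins that did not pass the filter reached at most 0.644 CPM in any library. No other claudin passed in shJARID1D by edgeR or by DESeq2, and 1 was at an unadjusted p under 0.05.

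Of 10 other membrane proteins, 1 rose and 2 fell in shZMYND8, against 8.89% of all genes higher and 7.34% lower. CRB3, the Crumbs protein of the apical membrane, measured 14.6 and 16.9 CPM in shLuciferase, 8.27 and 7.64 CPM in shZMYND8, and 11.8 and 13.8 CPM in shJARID1D. It fell by 0.99 ± 0.16 on the log2 scale in shZMYND8 (edgeR, adjusted p = 0.00378) and passed in all 13 alternative fits. LSR, a protein of tricellular contacts, fell by 0.49 ± 0.13 (edgeR, adjusted p = 0.0327), a call lost in 7 of the 13. JAM3, a junctional adhesion molecule, rose by 0.64 ± 0.13 (edgeR, adjusted p = 0.0119), a call lost with either shZMYND8 library left out. In shJARID1D none of the 10 passed by edgeR or DESeq2, with 1 higher and 3 lower at an unadjusted p under 0.05.

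Scaffold proteins that changed in shZMYND8 fell, 4 of 17: AMOT, an angiomotin, by 0.93 ± 0.20 (edgeR, adjusted p = 0.0118), PALS1, a Crumbs complex scaffold listed as MPP5, by 0.52 ± 0.13 (0.0286), MAGI1, a membrane-associated guanylate kinase, by 0.48 ± 0.14 (0.0443), and PATJ, another Crumbs complex scaffold listed as INADL, by 0.44 ± 0.13 (0.0413). The share of all genes lower in shZMYND8 was 7.34%. The AMOT call was lost without shZMYND8 replicate 1, and the PALS1, PATJ and MAGI1 calls were lost in 6, 7 and 9 of the 13 alternative fits. None of the 17 passed as higher by edgeR or DESeq2, with 2 higher at an unadjusted p under 0.05. In shJARID1D 3 of 17 fell, against 2.79% of all genes. MYLK, the myosin light chain kinase that drives contraction of the junctional actin ring, measured 144 and 140 CPM in shLuciferase, 109 and 125 CPM in shZMYND8, and 59.6 and 62.1 CPM in shJARID1D. It fell by 1.22 ± 0.12 in shJARID1D (edgeR, adjusted p = 0.00333, and 0.0523 without shJARID1D replicate 1). AMOTL2, another angiomotin, fell by 0.66 ± 0.14 (edgeR, adjusted p = 0.0256), and PALS1 by 0.55 ± 0.13 (0.0448), calls that were lost in 6 and 7 of the 13 alternative fits.

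Polarity proteins passed in 5 of 12 cases in shZMYND8, 1 higher and 4 lower, against 8.89% of all genes higher and 7.34% lower. PARD6A and PARD6G, the adaptors that bind atypical protein kinase C, fell by 1.29 ± 0.22 and 1.01 ± 0.19 (edgeR, adjusted p = 0.00431 and 0.00779). SCRIB, the basolateral polarity scaffold, fell by 0.88 ± 0.21 (edgeR, adjusted p = 0.0184), whereas PARD3, which recruits the PAR complex to junctions, rose by 0.52 ± 0.12 (edgeR, adjusted p = 0.0182). The PARD6A call was lost without shZMYND8 replicate 1 (adjusted p = 0.0543 by edgeR), and the PARD6G, SCRIB and PARD3 calls were lost with either shZMYND8 library left out. In shJARID1D none of the 12 passed by edgeR or DESeq2, with 1 higher and 1 lower at an unadjusted p under 0.05.

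**Figure D3:**
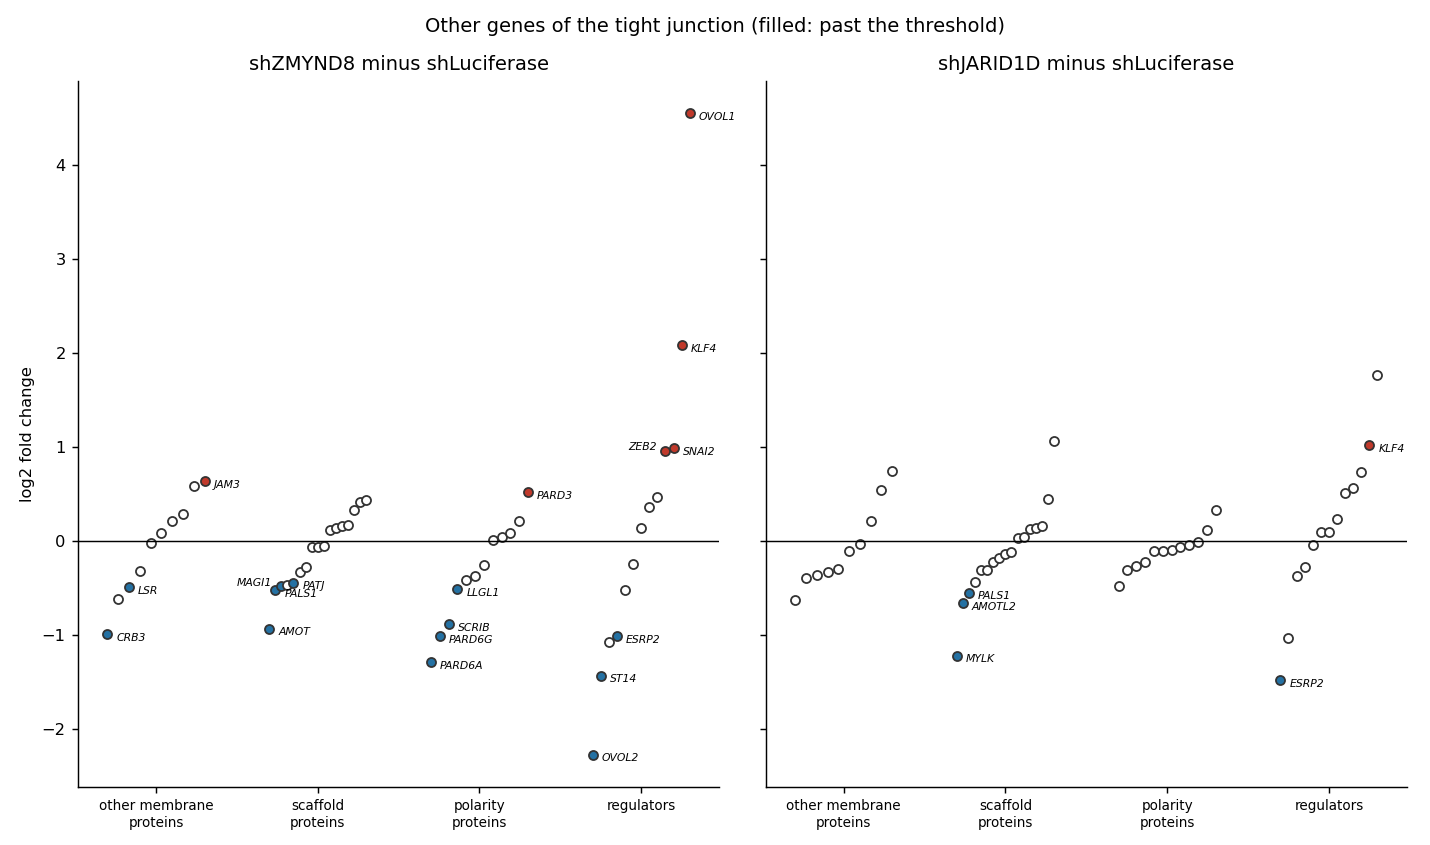
Log2 fold change of the tested membrane (10), scaffold (17) and polarity (12) genes and of the regulators (13), each list sorted by value, in shZMYND8 (left) and shJARID1D (right), with filled and named points past the adjusted threshold of 0.05. In shZMYND8 CRB3, AMOT and PARD6A are the lowest named points of their lists and KLF4 stands at 2.08, and in shJARID1D MYLK stands at -1.22 and ESRP2 at -1.48.

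A list of 13 tested regulators of epithelial junction genes held 4 that rose and 3 that fell in shZMYND8, and 1 of each in shJARID1D. Of all genes, 8.89% were higher and 7.34% lower in shZMYND8, and 2.96% and 2.79% in shJARID1D. By DESeq2 2 of the list were higher and 2 lower in shZMYND8, and 2 higher and 1 lower in shJARID1D. KLF4, a zinc finger factor of barrier epithelia, measured 9.45 and 10.2 CPM in shLuciferase, 50 and 33.4 CPM in shZMYND8, and 21.9 and 18 CPM in shJARID1D. It rose by 2.08 ± 0.20 in shZMYND8 (edgeR, adjusted p = 0.00051, past the threshold in all 13 alternative fits) and by 1.02 ± 0.20 in shJARID1D (adjusted p = 0.0233, lost with no filter and with either shJARID1D library left out). ESRP2, a regulator of epithelial splicing, measured 28.7 and 36.4 CPM in shLuciferase, 13.7 and 18.6 CPM in shZMYND8, and 11.4 and 12 CPM in shJARID1D. It fell by 1.01 ± 0.18 in shZMYND8 (edgeR, adjusted p = 0.00498, lost without shZMYND8 replicate 1) and by 1.48 ± 0.18 in shJARID1D (adjusted p = 0.00702, lost with either shJARID1D library left out).

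ST14, the membrane protease matriptase, fell by 1.43 ± 0.25 in shZMYND8 (edgeR, adjusted p = 0.00556, lost without shZMYND8 replicate 1). OVOL1, an epithelial repressor, rose from 0 and 1 counts in shLuciferase to 18 and 11 in shZMYND8 (edgeR, adjusted p = 0.0124), a call lost without shZMYND8 replicate 1 and in 2 other fits. The remaining regulators past the threshold were named after their values were seen. SNAI2, at 2.27 to 5.27 CPM, and ZEB2, at 2.27 to 5.37 CPM, are both repressors that bind the E-box. In shZMYND8 they rose by 0.99 ± 0.27 and 0.96 ± 0.27 (edgeR, adjusted p = 0.0329 and 0.0377). The SNAI2 call was lost in 4 of the 13 alternative fits, among them those with either shZMYND8 library left out. The ZEB2 call was kept in only 4 of the 13, and was lost by DESeq2 and with any single library left out. OVOL2, a relative of OVOL1 at 0.129 to 1.02 CPM, fell by 2.27 ± 0.64 (edgeR, adjusted p = 0.0381), a call kept in only 5 of the 13, with an adjusted p of up to 0.238. The other E-box repressors ZEB1 and SNAI1 did not pass in shZMYND8, at 0.14 and 0.47. In shJARID1D SNAI2 and ZEB2 did not pass, at 0.73 ± 0.27 and 0.10 ± 0.28. The part of these regulators in the claudin levels was not tested.

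Across the 6 libraries the profiles of CLDN1, CLDN4, CLDN11 and TJP3, the largest rises and falls in the knockdowns, were compared with 11203 genes of at least 5 CPM on average, by the root mean square difference of centred log2 CPM. These likenesses describe only 6 points, which share the 3 groups, and carry no test. CLDN4 was nearest to RNF128, a ubiquitin ligase (0.124), MPZL2, an epithelial adhesion molecule (0.135), and SCEL, a precursor of the cornified envelope (0.175). RNF128 measured 11.1 and 8.65 CPM in shLuciferase, 3.04 and 2.53 CPM in shZMYND8, and 10.3 and 10.3 CPM in shJARID1D, the same step down in shZMYND8 as CLDN4. CLDN1 had less close neighbours, BEST1 (0.254), RHEBL1 (0.258) and the atypical cadherin FAT4 (0.262), all highest in shZMYND8. TJP3 was nearest to the apoptosis gene BMF (0.12), the mucin gene MUC1 (0.181) and CPT1C (0.196), which were highest in shJARID1D. CLDN11 was nearest to TAGLN, which encodes an actin-binding protein (0.131), PXDN (0.161) and SLC6A17 (0.286), which were lowest in shJARID1D. Among the 9 genes themselves the nearest pairs were CLDN12 and OCLN (0.153), which moved least, then CLDN4 and CLDN7 (0.191).

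**Figure D4:**
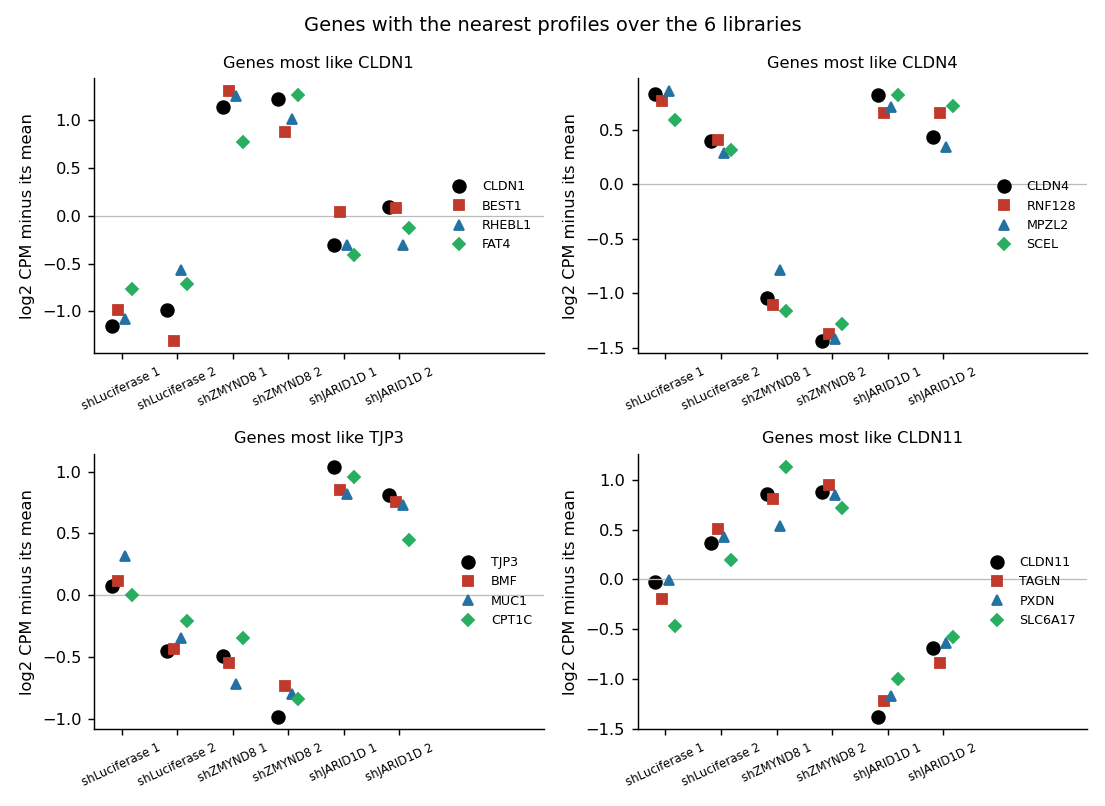
Log2 CPM minus its mean over the 6 libraries for CLDN1, CLDN4, TJP3 and CLDN11 (circles) and the 3 genes nearest to each, plotted without a prior count. RNF128, MPZL2 and SCEL follow CLDN4 down in both shZMYND8 libraries, and TAGLN follows CLDN11 down in both shJARID1D libraries.

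In the gene order of RefSeq GRCh38.p14, the protein-coding genes next to the 9, other than the 9 themselves, number 16, of which 12 were tested. In shZMYND8 3 of the 12 were higher, against 8.89% of all genes. They were CLDN16 beside CLDN1, SKIL beside CLDN11 with a log2 fold change of 0.63 ± 0.15 (edgeR, adjusted p = 0.0227), and PIP5K1C beside TJP3 with 0.90 ± 0.18 (edgeR, adjusted p = 0.00951). CLDN11 was likewise higher there, whereas TJP3 was lower without passing. In shJARID1D the lowest adjusted p of the 12 was 0.062 by edgeR, that of SKIL. Between the knockdowns 2 were higher in shZMYND8 (CLDN16 and PIP5K1C) and 1 was lower, against 8.67% and 7.02% of all genes. The lower neighbour was ABHD11, beside CLDN3, with a log2 difference of -0.64 ± 0.16 (edgeR, adjusted p = 0.0239). Against shLuciferase ABHD11 did not pass in shZMYND8, at -0.49 (edgeR, adjusted p = 0.0593). The SKIL, PIP5K1C and ABHD11 calls were not followed through the alternative fits.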

How the data were processed

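RNA from DU145 cells was sequenced in 6 libraries, 2 per group, and the series' 29 chromatin libraries (immunoprecipitates and inputs) were not used here. Deposited values are expected counts in a tracking table of the kind Cuffdiff writes, per the file headers, with 1 value for every gene in a library. Cuffdiff, edgeR 3.12.0, Bowtie 1.1.2, TopHat2 2.0.12 and the build hg19 stand, without roles, in the submitters' processing notes. Annotation and strand setting: not given in the sources used here. A scaling is present in these counts, with 1 fragment worth 0.881 to 1.16 depending on the library and 84.0% to 84.9% of values then within 0.05 of whole numbers. The 18 variance columns were not used, and 60 genes marked HIDATA, none of them among the 9, were left out.

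Counts were rounded to whole numbers and tested with edgeR 4.0.16 in R 4.3.3 (TMM factors 0.966 to 1.057, filterByExpr, quasi-likelihood F test on all 6 libraries). Of 28443 genes, 15867 entered the Benjamini-Hochberg adjustment, and those under 0.05 are called past the threshold. The common biological coefficient of variation was 12.3%, with 3 residual and 6.8 prior degrees of freedom. Standard errors were taken as the log2 fold change divided by the square root of F. CPM used TMM-scaled totals, and likeness used log2 CPM with a prior count of 2. The labels name no batch. The 2 libraries of each group differed by more than sampling noise, with a chi-square per gene of 12.1 to 33.8. Floors cover counting error only.

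The 9 genes and all gene lists were chosen with earlier results of these data known. Named genes were the 9, both targets, up to 4 genes per list and knockdown past the threshold by smallest adjusted p, and the 3 genes most like the largest rise and fall in each knockdown; further genes are named for context. Promoter windows came from a RefSeq table (GRCh38.p14). Alternatives were DESeq2 1.42.0, another scaling, other filters, only 2 groups, a replicate block and leaving out each library; undoing the deposited scaling was chosen after seeing the data. The code was tested on simulated data.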

Additional observations from a re-analysis of the deposited data

How the results depend on the processing

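The 9 genes were refitted under 13 alternatives in 3 comparisons. Of these 351 values, 308 kept their direction and side of the threshold, 35 kept only the direction and 8 turned, all of them values that had not passed. The turned values came from leaving out single libraries, as these log2 ranges over the 6 such fits show. In shZMYND8 OCLN ran from -0.18 to 0.033 (highest without shLuciferase replicate 1), CLDN12 from -0.13 (without shLuciferase replicate 2) to 0.19, and TJP1 from -0.0037 (without shZMYND8 replicate 2) to 0.36. In shJARID1D CLDN4 ran from -0.19 to 0.24, with -0.19 also without shLuciferase replicate 2, and CLDN12 from -0.13 to 0.19, with -0.05 without shJARID1D replicate 1. Between the knockdowns CLDN12 ran from -0.065 (without shJARID1D replicate 2) to 0.085.

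Several counts in shJARID1D moved with the settings. With no filter on low counts 1 of the 9 and 1 of the other tight junction genes passed there, and 204 genes in all. With only the 2 groups compared these were 2, 1 and 449. In shZMYND8 the other tight junction genes past the threshold numbered 8 with no filter and 8 with only 2 groups. Between the knockdowns 1560 genes passed with no filter and 4252 with only 2 groups. With a replicate block the counts were 6 other tight junction genes and 2073 genes in shJARID1D, and 3785 genes between the knockdowns, and the 9 genes' counts stayed at 5, 5 and 6. Whether same-numbered libraries share a batch or a culture is not stated in the labels. Their deviations correlated at 0.092, 0.17 and 0.097 across genes, which cannot decide it. The cause of these shifts was not tested.

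Without 1 library at a time, shZMYND8 gave 2 to 5 of the 9, 2 to 17 other tight junction genes and 642 to 3222 genes. Likewise shJARID1D gave 1 to 4, 0 to 7 and 16 to 2145, the 0 without shJARID1D replicate 1, where 9 were at an unadjusted p under 0.05 by edgeR. Between the knockdowns there were 4 to 6, 2 to 17 and 551 to 4191. A group left with 1 library was assumed to vary like the others. DESeq2 and undoing the deposited scaling gave 5, 5 and 6 of the 9. CLDN7 and TJP3 rest on under 200 counts per library.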
